A study of Rattus norvegicus with 20 samples.

Results

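The genes described here are 6 liver genes of ketone body formation and of the response to fasting: Bdh1, Acat1, Pdk4, Fgf21, Ppargc1a and Pck1. They were measured on all 20 arrays of rat liver in a feeding study with soybean protein. The members were found by symbol, as every probe set that the array annotation assigns to 1 of these genes. Of 27702 probe sets with values, 10 belonged to them, and of 13468 named genes they are 6. Bdh1, Acat1, Pdk4 and Ppargc1a each had a pair of probe sets with values, Fgf21 and Pck1 had 1 each, and 1 further probe set of Ppargc1a, making 11 in all, held no value. A gene's main value comes from whichever of its probe sets was brightest on average across the arrays, and its second probe set is given beside it.

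When an animal stops eating, the liver turns from storing sugar as fat to burning fat and exporting fuel. Acetyl-CoA from fatty acids is built into ketone bodies, pyruvate is kept out of oxidation and used to make glucose, and hormonal signals from the liver tell other tissues that food is short. Acat1, the mitochondrial acetoacetyl-CoA thiolase, acts at the entry of the ketone pathway and Bdh1 turns acetoacetate into the ketone body beta-hydroxybutyrate. Pdk4 is a kinase that switches off pyruvate dehydrogenase. Fgf21 encodes a hormone that the liver releases in fasting and also when dietary protein is low, Ppargc1a encodes the coactivator PGC-1alpha, and Pck1 encodes the cytosolic phosphoenolpyruvate carboxykinase of glucose synthesis.

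The rats were male Sprague-Dawley animals, 4 weeks old on arrival, caged singly with free access to food and water, adapted for 5 days and then kept on the test diet for 21 days. In the conventional soybean group, casein and the cultivar Fukuyutaka supplied the protein in a ratio of 1:1 (7 rats fed). In the 3:1 high-isoflavone group casein and the cultivar Yukipirika supplied it in a ratio of 3:1 (7 rats fed), and in the 1:1 high-isoflavone group in a ratio of 1:1 (8 rats fed). The reference diet held casein alone at 200 g per kg (7 rats fed), so every diet contained casein. From each group 5 rats of average food intake went onto arrays, which gives n = 5 separate rats per diet throughout. The sources used here do not give the isoflavone content of the diets, the hour of sampling or whether food had been withdrawn beforehand. The titles name the 3:1 diet without its ratio, and it was identified by wording.

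Signal is given on the log2 scale, on which a difference of 1 is a doubling. Because probe sets differ in their response, signal was compared between genes only as a rank among all probe sets, which is a rough measure. The tissue label was checked on hepatocyte markers, of which 6 of 7 had values: Alb, Apoa1, Ttr, Serpina1, Cps1 and Fga each stood at or above the 99.5th percentile of all probe sets on every array. The median signal of an array lay between 2.51 and 2.56 on conventional soybean, 2.43 and 2.52 on 3:1 high-isoflavone soybean, 2.45 and 2.57 on 1:1 high-isoflavone soybean and 2.43 and 2.49 on casein, so the conventional soybean and casein arrays did not overlap. On replicate 1 of the 3:1 diet and replicate 5 of casein the lowest signal was 0.47 and 0.45, against at most -0.88 on the other 18 arrays. The beta-actin 3′ minus 5′ signal, a mark of RNA integrity, was 1.60 ± 0.20 on conventional soybean, 1.61 ± 0.30 on the 3:1 diet, 1.43 ± 0.40 on the 1:1 diet and 1.45 ± 0.11 on casein (log2, SD, n = 5 each). Of the marker lists of other cell types, the bile duct marker Epcam was lower than on casein on conventional soybean (-0.71, limma adjusted p = 0.0257) and on the 1:1 diet (-0.95, adjusted p = 0.00251), and the adipose marker Cfd was lower on the 1:1 diet (-0.64, adjusted p = 0.0334). The other measured bile duct markers, Krt19 and Krt7, and the other measured adipose marker, Plin1, were not called on any soybean diet. The summed signal of the 3 measured bile duct markers was 10.9 to 15.3 on conventional soybean, 10.7 to 14.8 on the 3:1 diet, 9.44 to 14.9 on the 1:1 diet and 11.1 to 16.7 on casein (linear signal). That of the 2 measured adipose markers was 9.08 to 12.1, 11.3 to 14.1 and 8.70 to 12.4 on the soybean diets in the same order and 10.7 to 16.4 on casein. Their part in the results was not tested. In whole liver, fewer cells of a type and less RNA per cell cannot be told apart.

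The 300 bases around the start of 3 members are shown because these genes are known to be regulated by hormones through their promoters and each window held letters of a regulatory motif. Each runs from 250 bases before the start to 50 bases of the transcript, 5′ to 3′ along the gene, from RefSeq on the rat build GRCr8, and matched motifs are in capitals. They are Fgf21 (chr1:105221327-105221626, minus strand), Pck1 (chr3:182348322-182348621, plus strand) and Ppargc1a (chr14:63634058-63634357, plus strand).
Fgf21: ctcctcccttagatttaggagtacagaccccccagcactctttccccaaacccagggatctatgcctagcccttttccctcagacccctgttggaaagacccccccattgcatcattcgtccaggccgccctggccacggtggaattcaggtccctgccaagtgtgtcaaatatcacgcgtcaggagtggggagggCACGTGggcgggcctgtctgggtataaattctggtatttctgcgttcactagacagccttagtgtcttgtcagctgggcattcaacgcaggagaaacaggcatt
Pck1: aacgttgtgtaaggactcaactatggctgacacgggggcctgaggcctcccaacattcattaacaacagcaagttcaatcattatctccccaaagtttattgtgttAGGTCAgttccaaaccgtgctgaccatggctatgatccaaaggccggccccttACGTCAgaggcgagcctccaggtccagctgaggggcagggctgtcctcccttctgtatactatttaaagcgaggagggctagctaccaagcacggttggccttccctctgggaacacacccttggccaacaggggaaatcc
Ppargc1a: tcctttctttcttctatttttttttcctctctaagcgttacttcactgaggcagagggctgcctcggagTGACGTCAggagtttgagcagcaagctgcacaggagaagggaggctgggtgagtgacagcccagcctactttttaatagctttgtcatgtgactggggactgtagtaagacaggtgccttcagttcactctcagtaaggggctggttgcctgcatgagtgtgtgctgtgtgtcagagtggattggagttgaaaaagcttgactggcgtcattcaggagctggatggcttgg

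Both strands were searched for ACGTCA (the core of the cyclic AMP response element, read by CREB after glucagon), CACGTG (an E-box), GTAAACA (a FOXO motif) and AGGTCA (a motif of nuclear receptors). The Fgf21 window held 1 CACGTG starting 54 bases before the start. In the Pck1 window, 1 ACGTCA started 91 bases and 1 AGGTCA 144 bases before the start. In the Ppargc1a window ACGTCA occurred on both strands as overlapping matches, starting 181 and 179 bases before the start. The Pdk4 window (chr4:34568280-34568579, minus strand) held none of these letters. Of 33469 rat promoter windows of the same 300 bases, 7.94% held ACGTCA, 6.42% CACGTG, 3.78% GTAAACA and 16.2% AGGTCA on either strand. These matches are letters in a window and were not tested as binding sites.

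Relative to casein, none of the 6 genes passed the test on any soybean diet. In the fit over all probe sets (limma, adjusted over 27702 probe sets, called under 0.05), 0 of 6 genes passed on conventional soybean, on the 3:1 diet or on the 1:1 diet, with 3, 0 and 1 at an unadjusted p under 0.05. Of all 13468 genes, 2319, 1146 and 2359 had such an unadjusted p on these diets. Over all 13468 genes 1.86% were called on conventional soybean, 0.0594% on the 3:1 diet and 2.52% on the 1:1 diet. The median difference of the 6 genes from casein was -0.12, 0.01 and -0.01 on these 3 diets, beside 0.04, 0.01 and 0.03 over all genes. On conventional soybean 2 members lay above and 4 below their casein mean, and on each high-isoflavone diet 3 lay above and 3 below, while 58.5%, 53.8% and 56.7% of all genes lay above it on these 3 diets. The differences furthest from 0 were those of Fgf21 and Pdk4, which were lower in mean on all 3 soybean diets than on casein. Of the 10 probe sets, the second one of Pdk4 passed on the 1:1 diet, and over all 27702 probe sets 2.21% passed there.

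**Figure D1:**
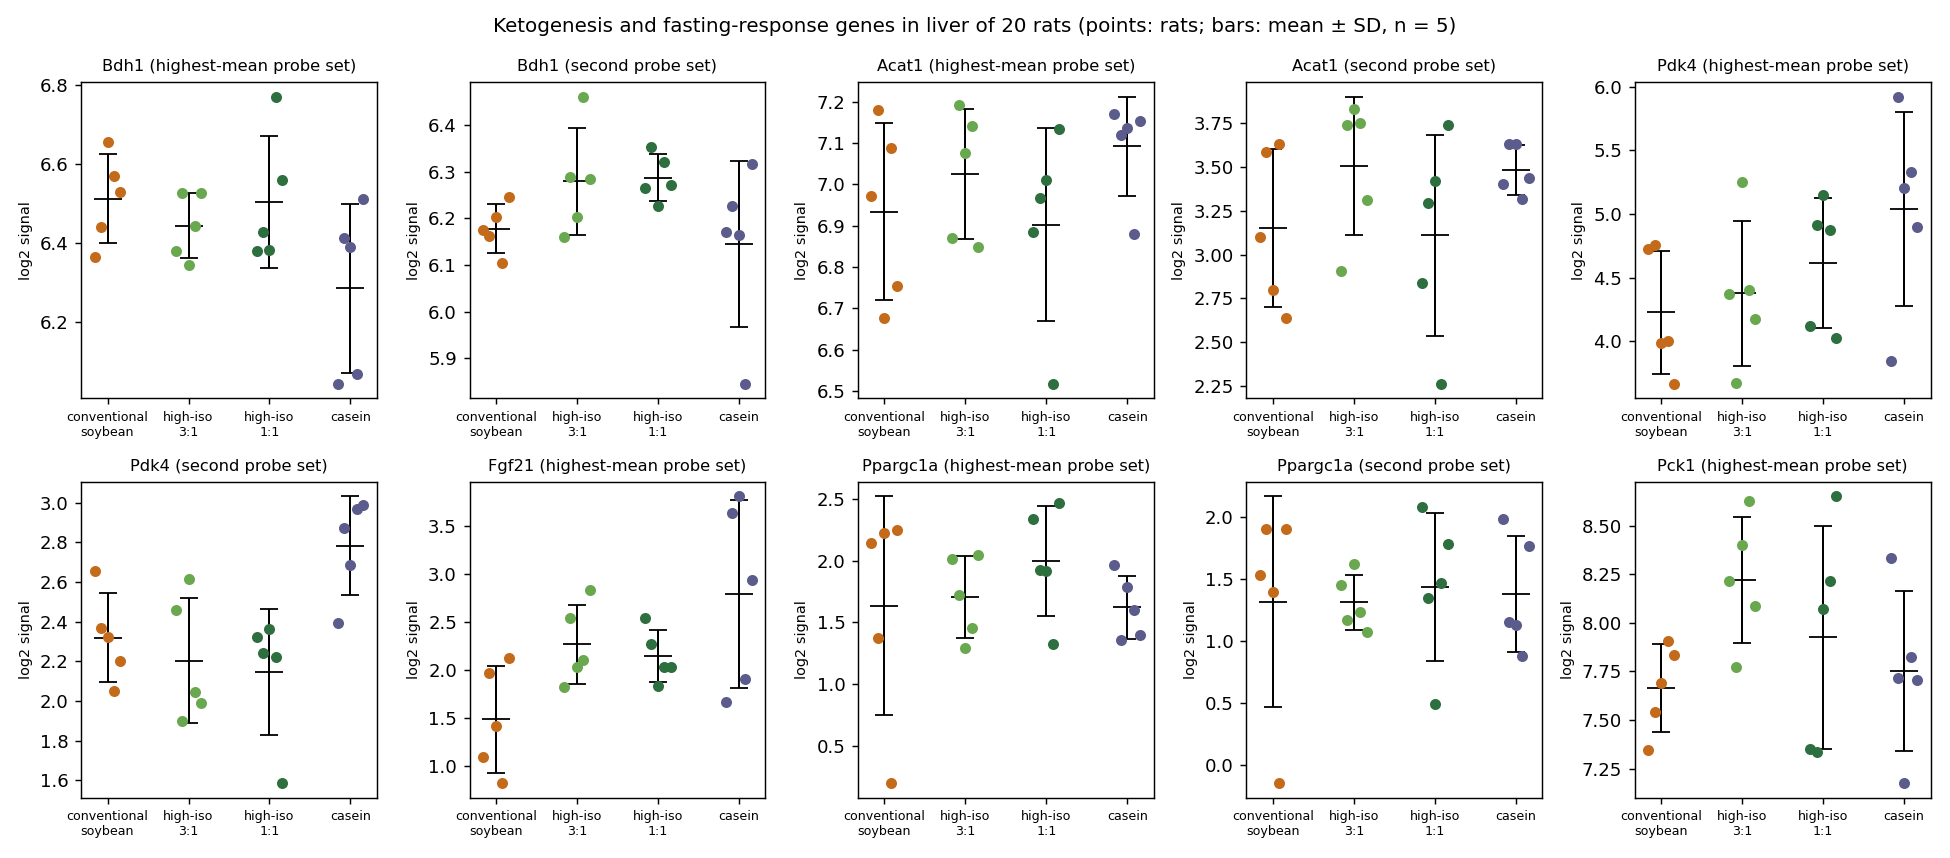
Log2 signal of the 10 member probe sets, 1 panel each, with the diets along the x axis (conventional soybean, high-isoflavone 3:1, high-isoflavone 1:1, casein). Points are rats and bars are the mean ± SD of 5 rats. The casein rats of Fgf21 spread from 1.67 to 3.81, and the second Pdk4 probe set has all 1:1 rats below all casein rats.

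Among the ketone body enzymes, Bdh1 signal was 6.37, 6.44, 6.65, 6.57 and 6.53 in the rats on conventional soybean, 6.38, 6.53, 6.34, 6.44 and 6.53 on the 3:1 diet, 6.38, 6.43, 6.38, 6.77 and 6.56 on the 1:1 diet, and 6.04, 6.41, 6.39, 6.07 and 6.51 on casein. Casein replicates 1 and 4 were lower than every rat on a soybean diet, and the other 3 casein rats lay within the soybean values. The difference from casein was 0.23 on conventional soybean (95% interval 0.02 to 0.43, limma adjusted p = 0.243), 0.16 on the 3:1 diet (-0.05 to 0.36, adjusted p = 0.737) and 0.22 on the 1:1 diet (0.01 to 0.42, adjusted p = 0.263). None passed the test. The second probe set of Bdh1 differed by 0.03, 0.13 and 0.14 on the same diets, with adjusted p = 0.866, 0.727 and 0.396.

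Acat1 signal was 6.97, 7.18, 6.68, 7.09 and 6.75 on conventional soybean, 6.87, 7.19, 7.08, 7.14 and 6.85 on the 3:1 diet, 6.88, 6.97, 7.01, 6.52 and 7.13 on the 1:1 diet, and 7.17, 7.12, 7.14, 6.88 and 7.15 on casein. The casein rats other than replicate 4 were close together near the top of the soybean values, and all groups overlapped. The differences from casein were -0.16 (-0.40 to 0.08), -0.07 (-0.30 to 0.17) and -0.19 (-0.43 to 0.05), with limma adjusted p = 0.498, 0.939 and 0.429. Its second probe set ranged more widely, from 2.64 to 3.63 on conventional soybean, 2.90 to 3.83 on the 3:1 diet, 2.27 to 3.73 on the 1:1 diet and 3.31 to 3.63 on casein. Its differences were -0.33, 0.02 and -0.37, none of which passed (adjusted p = 0.498, 0.993 and 0.466).

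Pdk4, the kinase that holds back pyruvate oxidation, had a signal of 4.72, 4.75, 3.99, 4.00 and 3.67 on conventional soybean, 4.37, 3.67, 5.25, 4.40 and 4.18 on the 3:1 diet, 4.12, 4.91, 5.15, 4.87 and 4.03 on the 1:1 diet, and 3.85, 5.92, 5.21, 5.33 and 4.90 on casein. Of the casein rats, 4 were above every rat on conventional soybean and replicate 1 was among the lowest of all 20. The difference from casein was -0.81 on conventional soybean (SE 0.33, a 1.76-fold lower signal, limma adjusted p = 0.209), -0.66 on the 3:1 diet (adjusted p = 0.634) and -0.42 on the 1:1 diet (adjusted p = 0.563). None passed at 0.05. The value of the 1:1 diet turned on single rats: it was -0.72 without casein replicate 1, -0.20 without casein replicate 2 and -0.28 without replicate 5 of the 1:1 diet. Without number 1 of all diets the difference on conventional soybean was -1.24 (adjusted p = 0.0632).

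The second Pdk4 probe set read 2.65, 2.37, 2.32, 2.05 and 2.20 on conventional soybean, 2.46, 1.90, 2.61, 2.05 and 1.99 on the 3:1 diet, 2.32, 2.24, 2.36, 2.22 and 1.58 on the 1:1 diet, and 2.39, 2.87, 2.69, 2.97 and 2.99 on casein. All 5 rats on the 1:1 diet were below all 5 casein rats, and on the other soybean diets the rats overlapped casein replicate 1 alone. Such a gap between the rats of the 1:1 diet and casein was present at 4.45% of all probe sets. The signal fell by 0.64 on the 1:1 diet (SE 0.17, 95% interval -0.99 to -0.29, 1.55-fold lower, limma adjusted p = 0.0492), with differences of -0.46 on conventional soybean (adjusted p = 0.162) and -0.58 on the 3:1 diet (adjusted p = 0.263). The call stood just under the threshold: it held in 6 of 20 fits that left out 1 array, namely without casein replicate 1, conventional soybean replicate 1 or 4, replicate 2 or 3 of the 3:1 diet or replicate 3 of the 1:1 diet, and was lost in the other 14, with an adjusted p of 0.0301 to 0.122 over the 20. The first probe set of Pdk4 did not pass on the 1:1 diet.

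Fgf21, the fasting and low-protein hormone, had a signal of 1.09, 1.97, 1.42, 0.82 and 2.12 on conventional soybean, 1.82, 2.54, 2.03, 2.11 and 2.84 on the 3:1 diet, 2.54, 2.27, 1.83, 2.04 and 2.03 on the 1:1 diet, and 1.67, 3.63, 3.81, 1.91 and 2.94 on casein. The casein rats separated into replicates 2, 3 and 5, above every soybean rat, and replicates 1 and 4, within the values of the soybean rats. The mean was 1.48 ± 0.56 on conventional soybean, 2.27 ± 0.41 on the 3:1 diet, 2.14 ± 0.27 on the 1:1 diet and 2.79 ± 0.98 on casein (SD, n = 5 each). Over the 20 arrays the mean signal of Fgf21 was above that of 37.8% of all probe sets, a low level.

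The Fgf21 difference on conventional soybean, -1.31 (SE 0.34, 95% interval -2.02 to -0.59, 2.47-fold lower), was the furthest from 0 of all member differences from casein and missed the threshold, with limma adjusted p = 0.0555. It was -0.52 on the 3:1 diet (-1.24 to 0.19, adjusted p = 0.761) and -0.65 on the 1:1 diet (-1.37 to 0.07, adjusted p = 0.358). Both were smaller without casein replicate 3, at -0.27 on the 3:1 diet and -0.40 on the 1:1 diet, and on the 3:1 diet the difference was -0.31 without casein replicate 2 and -0.80 without casein replicate 1. The conventional soybean difference was called in 5 of 9 other settings of the analysis (adjusted p = 0.0285 to 0.127 over the 9). In 1 of the 5, the mean of a gene's probe sets, the single Fgf21 probe set gave the same -1.31. Its adjusted p there was 0.0489, in a limma fit of genes in place of probe sets. The conventional soybean difference was also called without casein replicate 1 (-1.59, adjusted p = 0.0166) or without casein replicate 4 (-1.53, adjusted p = 0.0387), and over all 20 single omissions it ran from -1.59 to -1.05 (adjusted p = 0.0166 to 0.140). Without the 2 arrays of high floor it was -1.27 (adjusted p = 0.121).

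For Ppargc1a, the coactivator, signal was 2.14, 1.37, 2.23, 0.20 and 2.25 on conventional soybean, 2.02, 1.72, 1.29, 1.46 and 2.04 on the 3:1 diet, 2.33, 1.93, 1.92, 1.33 and 2.46 on the 1:1 diet, and 1.96, 1.36, 1.78, 1.60 and 1.40 on casein. Conventional soybean replicate 4 stood far below the other 19 rats, and otherwise the diets overlapped. The differences from casein were 0.02 (-0.62 to 0.65), 0.08 (-0.55 to 0.72) and 0.37 (-0.26 to 1.01), with limma adjusted p = 0.986, 0.974 and 0.588. The sign of the first reversed under both other scalings of the arrays. The second probe set read -0.15 in conventional soybean replicate 4 and from 0.49 to 2.08 in the other rats, and its differences of -0.07, -0.07 and 0.05 did not pass (adjusted p = 0.939, 0.981 and 0.962).

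Pck1, the enzyme that commits carbon to glucose synthesis, had a signal of 7.35, 7.54, 7.69, 7.91 and 7.84 on conventional soybean, 8.21, 7.77, 8.40, 8.63 and 8.09 on the 3:1 diet, 7.35, 7.33, 8.07, 8.22 and 8.65 on the 1:1 diet, and 8.33, 7.72, 7.17, 7.82 and 7.71 on casein. On the 3:1 diet 4 of 5 rats were above casein replicates 2, 3, 4 and 5, and the rats of the 1:1 diet covered nearly the whole range. The difference from casein was -0.09 on conventional soybean (-0.56 to 0.38, limma adjusted p = 0.875), 0.47 on the 3:1 diet (-0.0017 to 0.94, 1.38-fold, adjusted p = 0.619) and 0.17 on the 1:1 diet (-0.30 to 0.65, adjusted p = 0.761). None passed. Under the scaling that centres and scales the arrays, the value of the 1:1 diet was -0.01.

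**Figure D2:**
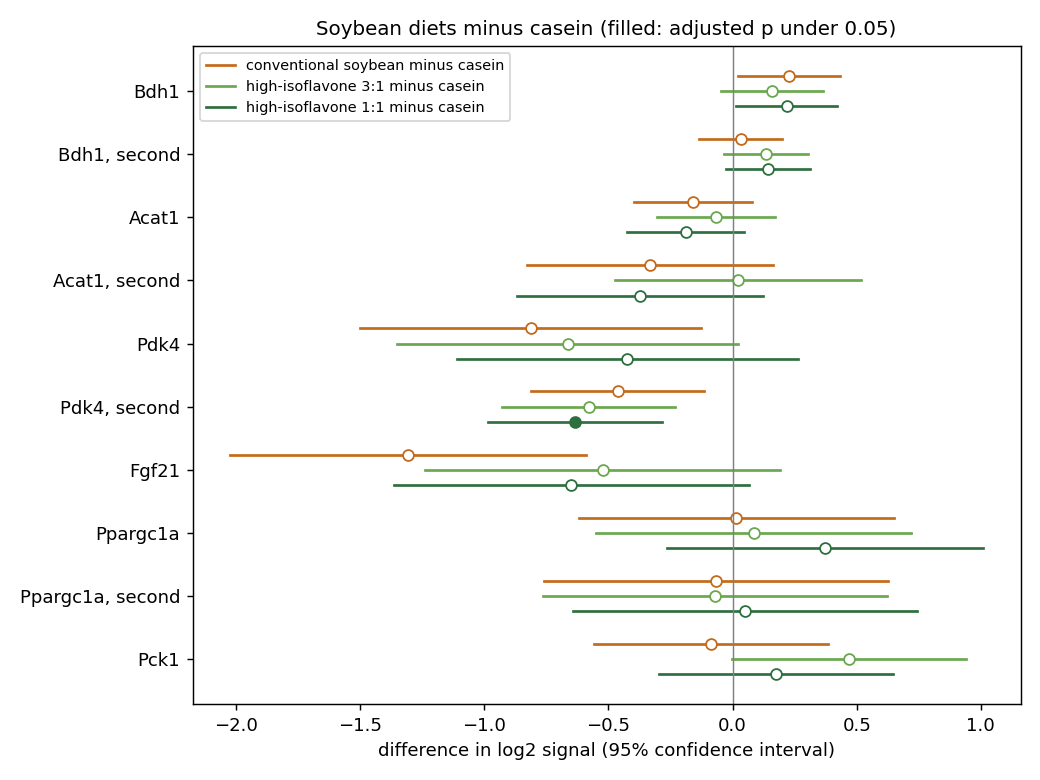
Difference in log2 signal from casein (x axis) for each member probe set (y axis) on the conventional soybean, 3:1 and 1:1 high-isoflavone diets. Points are the fitted differences with 95% confidence intervals, filled where the adjusted p was under 0.05, which is the second Pdk4 probe set on the 1:1 diet. The Fgf21 interval on conventional soybean runs from -2.02 to -0.59.

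The cultivars were compared at the same share of soybean protein, and the shares within the high-isoflavone cultivar. On the 1:1 high-isoflavone diet relative to conventional soybean, 0 of 6 genes were called by limma, with 0 at an unadjusted p under 0.05, beside 0.104% of all genes called. The median difference of the 6 was 0.31, beside -0.01 over all genes. Fgf21 averaged 2.14 on the 1:1 diet and 1.48 on conventional soybean, a difference of 0.66 (-0.06 to 1.37, adjusted p = 0.732). Pdk4 differed by 0.39 (-0.30 to 1.08, adjusted p = 0.871), Ppargc1a by 0.36 (adjusted p = 0.872), Pck1 by 0.26 (adjusted p = 0.874), Acat1 by -0.03 (adjusted p = 0.980) and Bdh1 by -0.01 (adjusted p = 0.995). Between the 1:1 and the 3:1 high-isoflavone diet, 0 of 6 were called and 0 had an unadjusted p under 0.05. Of all genes 0% were called there, while 1003 of 13468 had an unadjusted p under 0.05. The differences of the members ran from -0.29 for Pck1 (-0.77 to 0.18) to 0.29 for Ppargc1a (-0.35 to 0.92). The 3 comparisons with casein share the same 5 casein rats, and the last 2 share the rats of the 1:1 diet.

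The spread among rats of the same diet depended on the probe set as well as on the gene. The SD within diets was 0.61 for Fgf21, 0.59 and 0.28 for the first and second probe sets of Pdk4, 0.54 and 0.58 for those of Ppargc1a, 0.40 for Pck1, 0.19 and 0.42 for those of Acat1, and 0.15 and 0.11 for those of Bdh1 (log2, 20 rats about 4 diet means). The median over all probe sets was 0.24. By the first probe set, the spread of Fgf21, Pdk4 and Ppargc1a was wider than that of 97.8%, 97.3% and 95.7% of probe sets, and by the second that of Pdk4 was wider than 64.2%. In mean signal, the same first probe sets stood above 37.8%, 91.0% and 21.3% of probe sets, so Fgf21 and Ppargc1a were dim. How much of their spread was measurement noise at low signal was not tested. The range over the 20 rats was 2.99 for Fgf21 and 0.73 for Bdh1.

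By the brightest probe sets, casein replicate 1 held the lowest or the highest casein value of all 6 genes. It was the lowest casein rat in Bdh1 (6.04), Pdk4 (3.85) and Fgf21 (1.67) and the highest in Acat1 (7.17), Ppargc1a (1.96) and Pck1 (8.33). Over all genes this array was at such an extreme of its diet for 46.7%, and the other arrays lay between 30.8% and 50.02%. In no other rat were more than 4 of the 6 genes at an extreme of the diet. Of the 10 member probe sets, casein replicate 1 was at an extreme in 8, beside 45.0% of all probe sets, and conventional soybean replicate 4 in 7. Casein replicate 1 was at no extreme in the second probe sets of Bdh1 (6.17) and Acat1 (3.40). It was singled out after its values were seen, and what sets it apart was not tested.

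How far the rats kept their order between the probe sets of a gene differed by gene, and it was kept most closely in Acat1 and Pdk4. After subtracting the diet means, the probe sets correlated over 20 rats with r = 0.90 for Acat1 (rho = 0.88), r = 0.71 for Pdk4 (rho = 0.69), r = 0.52 for Bdh1 (rho = 0.51) and r = 0.58 for Ppargc1a (rho = 0.38). The permutation p of r, two-sided with 100000 shuffles within diets and adjusted over the 4 genes, was 2.40e-04, 0.00176, 0.0534 and 0.0678, and that of rho was 4.40e-04, 0.00266, 0.0413 and 0.131. Without the 2 rats farthest from the median of the first probe set, r was 0.86 for Acat1, 0.70 for Pdk4, 0.63 for Bdh1 and 0.27 for Ppargc1a, so the Ppargc1a relation rested on those rats. This check was chosen after the data had been seen.

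**Figure D3:**
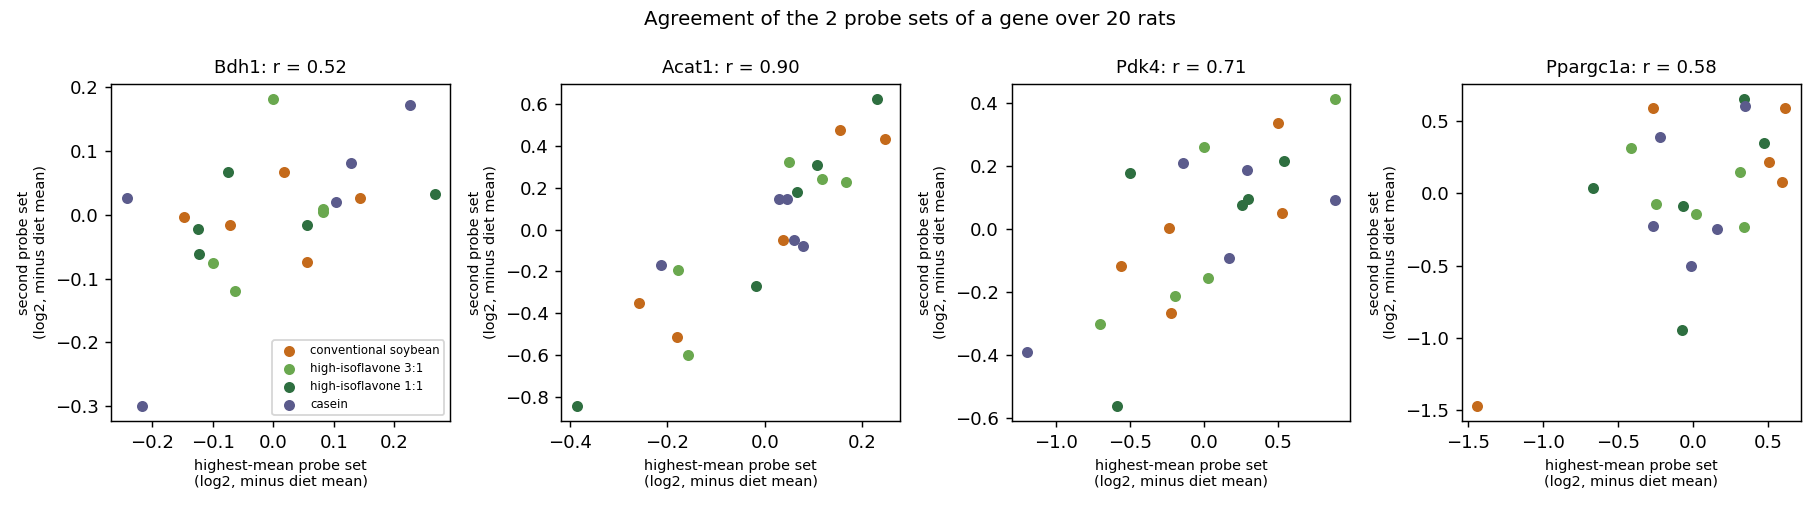
Log2 signal of the second probe set (y axis) against that of the highest-mean probe set (x axis), each minus the mean of its diet, for Bdh1, Acat1, Pdk4 and Ppargc1a. Points are 20 rats coloured by diet. Acat1 lies nearly on a line (r = 0.90), and in Ppargc1a 1 conventional soybean rat lies far from the rest.

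Whether the 6 genes varied together among rats of the same diet was examined over the 15 pairs of genes, after subtracting the diet means. No pair passed the permutation test after adjustment over the 15 pairs. Fgf21 and Pck1 ran opposite ways, with r = -0.53 (p = 0.00996, adjusted p = 0.149) and rho = -0.54 (p = 0.0133, adjusted p = 0.137), and r was -0.32 without the 2 rats farthest from the Fgf21 median. Over the 20 fits that left out 1 array, r ran from -0.59 to -0.41 and its adjusted p from 0.0264 to 0.682. It passed in 2 of them, without conventional soybean replicate 1 or 5, and in none of 6 other settings, where r ran from -0.59 to -0.26 (adjusted p = 0.0691 to 0.707). The 6 settings included values not centred on the diets, which hold the differences between diets as well. Bdh1 and Fgf21 gave r = 0.51 (p = 0.0984, adjusted p = 0.559), rho = 0.54 (p = 0.0521, adjusted p = 0.260) and r = 0.49 without the 2 rats farthest from the Bdh1 median. For Bdh1 and Fgf21, r ran from 0.013 to 0.56 over the 6 other settings and from 0.37 to 0.61 without single arrays. The r of 0.013 came from the values not centred on the diets. Pdk4 and Ppargc1a gave r = -0.35 (p = 0.112, adjusted p = 0.559), rho = -0.55 (p = 0.0182, adjusted p = 0.137) and r = -0.29 without the 2 rats farthest from the Pdk4 median. For this pair r ran from -0.38 to -0.24 over the 6 other settings and from -0.65 to -0.29 without single arrays. The other 12 pairs had r between -0.24 (Bdh1 and Ppargc1a) and 0.18 (Pdk4 and Fgf21), and the smallest of their p was 0.269. The permutation tests were two-sided with 100000 shuffles within diets. Values not centred on the diets were shuffled over all 20 rats instead.

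**Figure D4:**
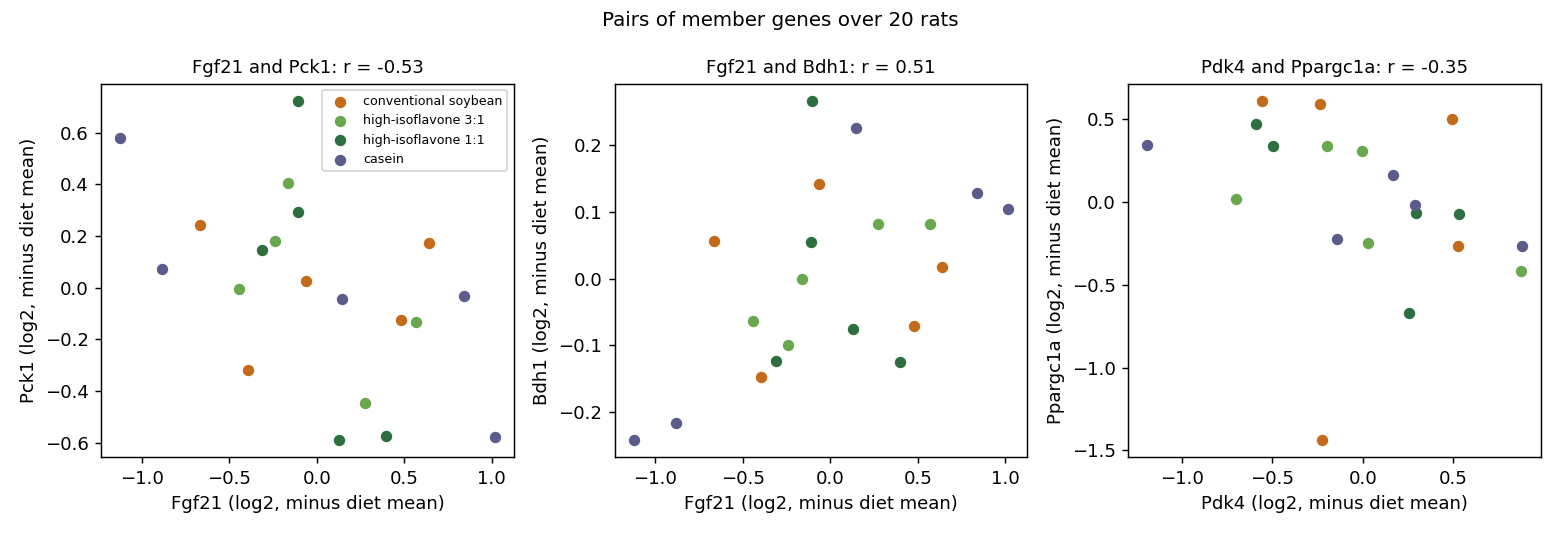
Pairs of member genes over 20 rats, each value being the log2 signal minus the mean of its diet: Fgf21 (x) with Pck1 (y), Fgf21 with Bdh1, and Pdk4 with Ppargc1a. Points are rats coloured by diet, and r is -0.53, 0.51 and -0.35. Casein replicates 1 and 4 lie at the lower left of the Fgf21 and Bdh1 panel.

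For each member, the 3 genes with the highest and the 1 with the lowest correlation of diet-centred signal were listed among 13467 other genes, over 20 rats and as a description only. Fgf21 was most like Rbpms2 (r = 0.85), RT1-CE12 (0.82) and Ube2m (0.81) and most opposite to Cul2 (-0.91). Ppargc1a was most like Ptpn1 (r = 0.88), Ssna1 (0.87) and Ptov1 (0.84) and most opposite to Pdcd5 (-0.90). Bdh1 was most like Cep68, Cygb and Pabpn1 (r = 0.82, 0.79 and 0.76), with Ralyl at -0.76. Acat1 was most like Fgf11, Sdcbp and Camlg (r = 0.76, 0.75 and 0.74), with Cmtm3 at -0.80. Pdk4 was most like Sec61a2, Abl1 and Pdzd4 (r = 0.80, 0.79 and 0.76), with Gpr135 at -0.77, and Pck1 was most like Rnmt, Tmem30a and Cdc73 (each r = 0.76), with Gabrg1 at -0.86. None of these 24 genes is a member of the set.

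Around the 6 members, 5 lists of related genes were counted in the same fit, leaving out the members themselves. Each gene was counted by its brightest probe set alone. Of all 13468 genes, 1.86%, 0.0594% and 2.52% were called on conventional soybean, the 3:1 and the 1:1 diet. On the same diets 2319, 1146 and 2359 of them had an unadjusted p under 0.05. Of 12 other genes of ketone bodies and their fatty acid supply, 1 rose and 1 fell on conventional soybean and on the 1:1 diet. On the 3:1 diet 0 passed. An unadjusted p under 0.05 was found for 6 on conventional soybean, 3 on the 3:1 diet and 6 on the 1:1 diet. The list median was -0.03 on conventional soybean, -0.02 on the 3:1 diet and 0.20 on the 1:1 diet, beside 0.04, 0.01 and 0.03 over all genes. Slc16a7, a transporter of pyruvate and ketone bodies, rose on conventional soybean (3.53 ± 0.07 there and 3.05 ± 0.20 on casein, 0.48, limma adjusted p = 0.0425) and on the 1:1 diet (3.75 ± 0.22, 0.70, adjusted p = 0.00278), in each case with no overlap of the rats. Acat2, the cytosolic thiolase that feeds sterol synthesis, fell on conventional soybean (2.45 ± 0.37 there and 3.48 ± 0.57 on casein, -1.03, adjusted p = 0.0455) and on the 1:1 diet (2.24 ± 0.34, -1.24, adjusted p = 0.0128). Cpt1a, the gate of fatty acid entry into mitochondria, had 5.88 ± 0.64 on conventional soybean and 6.96 ± 0.32 on casein, a difference of -1.08 that missed the threshold (adjusted p = 0.0648). Oxct1, which uses ketone bodies in other tissues, differed by 0.47, 0.18 and 0.39 on the 3 diets (adjusted p = 0.176, 0.876 and 0.263). Another probe set of Slc16a1 fell by 0.53 on the 1:1 diet (adjusted p = 0.0345). The brightest Slc16a1 probe set went the other way without passing, with means of 5.74 there and 5.52 on casein.

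Of 33 genes of glucose synthesis and of the glucagon or glucocorticoid response, 1 fell on conventional soybean and 0 passed on the 3:1 diet. On the 1:1 diet 1 rose and 1 fell. An unadjusted p under 0.05 was found for 9 on conventional soybean, 2 on the 3:1 diet and 6 on the 1:1 diet. The list median was -0.06, 0.0014 and -0.01 on these diets. Tat, the tyrosine aminotransferase induced by glucocorticoids and glucagon, fell on conventional soybean (3.74 ± 0.73 there and 4.95 ± 0.45 on casein, -1.20, adjusted p = 0.0487) and on the 1:1 diet (3.70 ± 0.52, -1.25, adjusted p = 0.0331). Its difference on the 3:1 diet was -0.13 (adjusted p = 0.957). Slc37a4, the glucose-6-phosphate transporter, rose on the 1:1 diet (6.69 ± 0.12 there and 6.33 ± 0.08 on casein, 0.35, adjusted p = 0.0492). The fasting markers Igfbp1 and Angptl4 and the insulin receptor substrate Irs2 did not pass on any diet: on conventional soybean they differed by -0.47 (adjusted p = 0.750), -0.49 (adjusted p = 0.403) and 0.60 (adjusted p = 0.245). Igfbp1 spread from 1.75 to 5.51 on conventional soybean and from 3.10 to 5.02 on casein. Other probe sets of Hnf4a rose on the 1:1 diet by 0.47 and 0.93 (adjusted p = 0.0367 and 0.0347), while its brightest averaged 6.99 there and 7.03 on casein. Another probe set of Gpt2 rose there by 0.58 (adjusted p = 0.0394), while its brightest did not pass. G6pc1 and Ppara were not analysed here.

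Of 11 genes of pyruvate dehydrogenase and its control, 1 fell on conventional soybean and 2 fell on the 1:1 diet. On the 3:1 diet 0 passed. The list medians were -0.30, -0.23 and -0.24 on conventional soybean, the 3:1 and the 1:1 diet. On the same diets 6, 4 and 5 genes had an unadjusted p under 0.05. Pdhx, which holds the complex together, fell on conventional soybean (2.91 ± 0.20 there and 3.80 ± 0.38 on casein, -0.89, adjusted p = 0.00828) and on the 1:1 diet (3.06 ± 0.24, -0.74, adjusted p = 0.0186). Mpc1, a subunit of the mitochondrial pyruvate carrier, fell on the 1:1 diet (7.03 ± 0.10 there and 7.69 ± 0.18 on casein, -0.66, adjusted p = 0.00429). Pdk2, a second kinase of the complex, differed by -0.30, -0.08 and -0.14 (adjusted p = 0.127, 0.902 and 0.522). Another probe set of Pdk1 fell on the 1:1 diet (-0.89, adjusted p = 0.0177). Another of Pdp2 fell on conventional soybean (-0.63, adjusted p = 0.0386). The brightest probe sets of Pdk1 and Pdp2 did not pass there. Of 15 partners of FGF21 and PGC-1, among them the FGF receptors and Esrra, 0 passed on any soybean diet by limma, with 1, 3 and 1 at an unadjusted p under 0.05 on conventional soybean, the 3:1 and the 1:1 diet, and medians of -0.09, -0.04 and -0.02.

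Of 12 genes that the liver raises after feeding, 5 fell on conventional soybean, 0 passed on the 3:1 diet and 7 fell on the 1:1 diet. An unadjusted p under 0.05 was found for 10 on conventional soybean, 9 on the 3:1 diet and 11 on the 1:1 diet. The list medians were -0.98, -0.99 and -1.37 on these diets. Elovl6, a fatty acid elongase, fell by 2.06 on conventional soybean and by 2.59 on the 1:1 diet (adjusted p = 0.0321 and 0.00548). Pklr, the liver pyruvate kinase, fell by 0.62 and 0.81 (adjusted p = 0.0461 and 0.00762). Pnpla3 fell by 3.69 and 5.04 (adjusted p = 0.0493 and 0.00647). Acaca fell by 1.24 on each (adjusted p = 0.0246 and 0.0171), while its second probe set differed by -0.0022 and 0.02. These genes are known from earlier results of the same arrays to be lower on the soybean diets, so their direction is no independent evidence. The calls of related genes differed in how they stood when 1 array was left out. On the 1:1 diet those of Slc16a7, Acat2, Mpc1, Elovl6, Pnpla3 and Pklr held in each of the 20 such fits, Acaca in 19, Pdhx in 17, Tat in 15 and Slc37a4 in 4. On conventional soybean Pdhx held in 20, Elovl6 and Acaca in 14 each, Slc16a7 in 9, Acat2 in 7, Tat and Pklr in 6 each and Pnpla3 in 4. Of 10 other settings, the calls of Tat, Slc16a7 and Pnpla3 on conventional soybean and of Slc37a4 on the 1:1 diet held in 5, those of Acat2 and Pklr on conventional soybean in 6, and those of Elovl6 on conventional soybean and of Tat and Pdhx on the 1:1 diet in 8. Acaca held in 9 on each diet.

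**Figure D5:**
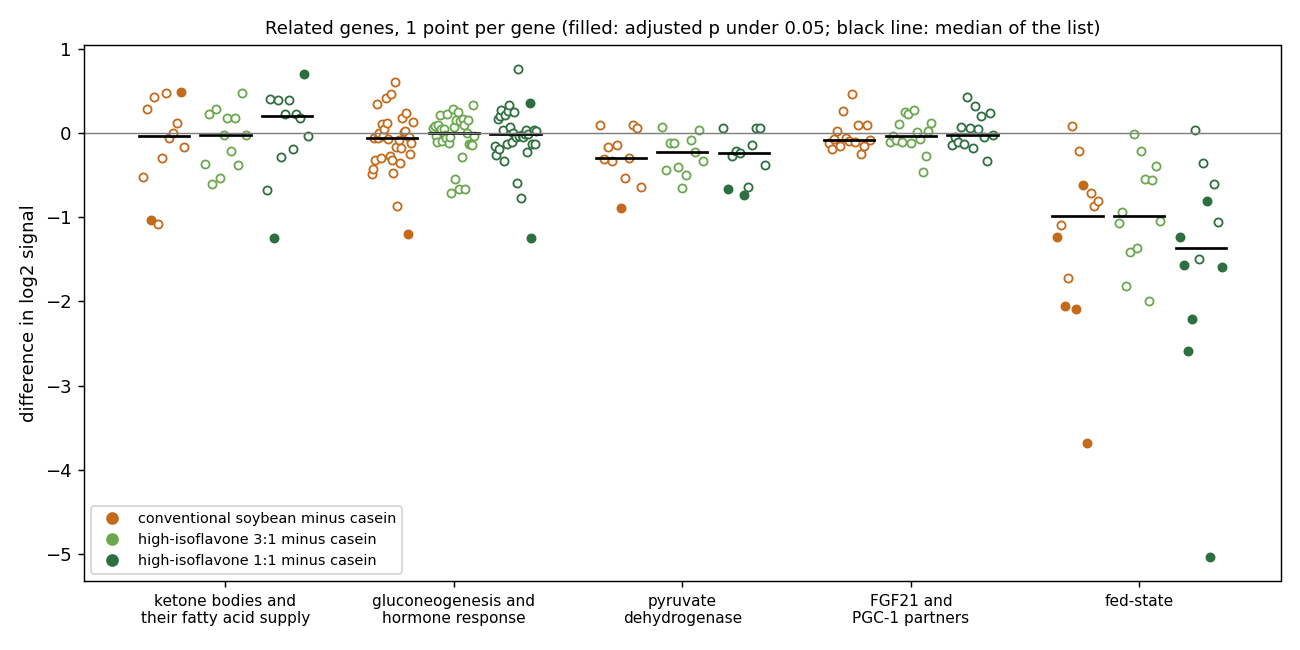
Difference in log2 signal from casein (y axis) for the genes of 5 lists (x axis), on the conventional soybean, 3:1 and 1:1 high-isoflavone diets. Each point is 1 gene by its highest-mean probe set, filled where the adjusted p was under 0.05, and black lines are list medians. The fed-state list has medians of -0.98, -0.99 and -1.37, and those of the other 4 lists lie between -0.30 and 0.20.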

How the data were processed

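Liver RNA of 20 rats, 5 per diet, was hybridised to Affymetrix rat arrays after 3′ labelling, per the labels' protocols. The authors deposited 1 table of log10 signals, normalized with the SuperNORM data service per the labels. The summary of probes into probe sets and the service's version are not stated there. The base is not stated and was inferred from the spiked control transcripts, whose signal rose by 0.998 ± 0.0236 for each log10 unit of amount (SD, 20 arrays). Values were multiplied by 3.32 to log2, with no further normalization. Arrays have no sequencing depth, and their number limits the precision.

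Of 31099 probe sets, 57 controls and 3342 without a value (2 in both) were left out. Of the 27702 tested, 19157 had 1 gene symbol in the platform annotation, 394 several and 8151 none. For 12 the symbol was updated by Entrez number. A gene is read by its brightest probe set. Diets were compared by limma 3.58.1 (R 4.3.3), with 1 mean per diet over 20 arrays, eBayes with a trend and two-sided tests. Every adjusted p of a difference comes from limma, and a call means an adjusted p under 0.05. Benjamini-Hochberg adjustment was over the 27702 probe sets, except in 2 other settings. Without the dimmer probe sets it was over the rest, and with the mean of a gene's probe sets it was over genes. Pairs of genes were tested by permutation within diets (NumPy 2.4.6, SciPy 1.17.1, Python 3.11.15). The limma fit was tested on simulated data, for the 1:1 diet against casein. The permutation tests were not. Groups came from the titles, matched to the diet descriptions by wording.

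The members, the 5 lists of related genes, the cell type markers and the tests were chosen with earlier results of these data known. Genes named from a list were a fixed few (Cpt1a, Oxct1, Tat, Igfbp1, Irs2, Pdk2 and Angptl4 among those with values) and up to 4 per list with the lowest adjusted p among those called against casein. For likeness, the 3 highest and the 1 lowest correlations were named. Alternatives covered array scaling, dim probe sets, the spread model, the arrays in the fit, a block of replicate numbers and single omissions. For pairs of genes they also covered values not centred on the diets. Of the macrophage, endothelial, stellate, lymphocyte, muscle, pancreas and red blood cell markers with values, none was called against casein on any diet.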

Additional observations from a re-analysis of the deposited data

Results flagged for a closer look

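In each value given for a diet of 5 rats, a rat was looked at again where its gap to the nearest other rat exceeded Dixon's 95% critical value of 0.71 of the range. This picked 7 of 104 groups of rats, and chance alone picks about 1 in 20.

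Among the members, Acat1 was 6.88 in casein replicate 4, with the nearest casein rat at 7.12. The second probe set of Pdk4 was 1.58 in replicate 5 of the 1:1 diet, with the nearest rat at 2.22. Without replicate 5 the difference from casein was -0.50 (limma adjusted p = 0.0940). The beta-actin 3′ minus 5′ signal of this array was 2.10, against at most 1.43 in the other rats of the diet. Whether it bears on the Pdk4 value was not tested. The second probe set of Ppargc1a was -0.15 in conventional soybean replicate 4, with the nearest rat at 1.39. The first probe set of Ppargc1a was 0.20 in the same rat.

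Among the related genes, Angptl4 was 4.26 in conventional soybean replicate 3, with the nearest at 5.50. Casein replicate 1 stood low in Pdhx, at 3.15 with the nearest at 3.84, and in Acaca, at 5.73 with the nearest at 6.40. Pnpla3 was 2.86 in replicate 4 of the 3:1 diet, with the nearest at 6.44.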

How the results depend on the processing

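A set of 68 differences between diets, of which 19 were called, was computed again in up to 10 other settings and without each of the 20 arrays. The set held the member probe sets against casein and the first probe sets of Fgf21, Pdk4 and Pck1 between soybean diets. It also held the named related genes on conventional soybean and the 1:1 diet against casein. Other differences in the text, among them those of Epcam and Cfd, were not computed again. None of the 19 called changed direction in any of these fits. In 12 uncalled differences the direction reversed somewhere, and the reversed values were at most 0.30 in size, with adjusted p of at least 0.601. The number of member genes called on conventional soybean against casein was 1, in place of 0, under quantile normalization, with centred and scaled arrays, with the replicate block, without number 1 of all diets and with the mean of a gene's probe sets, and 0 to 1 without single arrays. The gene was Fgf21 each time, and the cause was not tested. Whether the replicate numbers pair rats across diets was not tested. Over 30 same-numbered pairs of arrays, deviations from the diet means correlated with r from -0.163 to 0.401, 12 of them above 0.1. The median r was 0.034, beside -0.0077 for pairs with other numbers, and 7 of 20 arrays correlated best with their own number. With the block the Fgf21 difference was -1.31 (adjusted p = 0.0285), and the call of the second Pdk4 probe set on the 1:1 diet was lost (-0.64, adjusted p = 0.0564). That call was also lost without the trend (adjusted p = 0.0598), with only the compared arrays (0.0737) and without the 2 arrays of high floor (0.122).

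Reversed values against casein were, for Ppargc1a on conventional soybean, -0.027 with quantile normalization, -0.042 with centred and scaled arrays, -0.040 without the 2 arrays of high floor, -0.025 without number 1 and -0.026 with the mean of its probe sets, and on the 3:1 diet -0.048 without the 2 arrays of high floor. Its second probe set reversed to 0.030 without those 2 arrays and 0.029 without number 1 on conventional soybean, and to 0.042 without number 1 on the 3:1 diet. The second Acat1 probe set on the 3:1 diet reversed to -0.012 with quantile normalization and -0.013 with centred and scaled arrays, the second Bdh1 probe set on conventional soybean to -0.11 and Pck1 on the 1:1 diet to -0.013 with centred and scaled arrays, and Pck1 on conventional soybean to 0.14 without number 1. The correlation of Pdk4 and Fgf21 reversed to -0.044 without number 1. Under neither other scaling did the median of all probe sets differ from casein by over 0.02, beside up to 0.06 as deposited.

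Without single arrays, differences that crossed 0 ranged, on conventional soybean against casein, from -0.042 to 0.076 (second Bdh1 probe set), -0.14 to 0.38 (Ppargc1a), -0.21 to 0.30 (its second probe set), -0.23 to 0.058 (Pck1) and -0.86 to 0.078 (Igfbp1). On the 3:1 diet they ranged from -0.057 to 0.17 (second Acat1 probe set) and -0.20 to 0.078 (second Ppargc1a probe set), and on the 1:1 diet from -0.11 to 0.29 (second Ppargc1a probe set), -0.0066 to 0.32 (Pck1) and -0.37 to 0.058 (Angptl4). Fgf21 on the 1:1 against the 3:1 diet ranged from -0.24 to 0.016, and the correlation of Pdk4 and Fgf21 from -0.16 to 0.28. The number of gene pairs passing was 0 to 1.

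Probe sets called in all numbered 453 on conventional soybean, 11 on the 3:1 diet and 613 on the 1:1 diet against casein. They ranged over the other settings from 114 to 630, 3 to 23 and 312 to 659, and without single arrays from 120 to 499, 1 to 26 and 296 to 716. The lowest, 114, came without the 2 arrays of high floor. On the 1:1 diet against conventional soybean 21 were called (12 to 31 in other settings, 11 to 31 without single arrays), and against the 3:1 diet 0 (0 to 1 without single arrays). Fgf21, Ppargc1a and the second Pdk4 probe set lay below the median signal, so a fit without the dimmer probe sets gave no value for them.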
